A study of Mus musculus with 4 samples.

Results

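The B cell identity and receptor genes described here are 9 genes: the transcription factor genes Pax5 and Ebf1, the receptor signalling chains Cd79a and Cd79b, the surface genes Ms4a1, Fcmr and Cd22, the kinase gene Blk and the precursor-stage gene Vpreb3. They were taken by symbol from a table of 55399 genes, and all 9 were among the 16393 genes that passed the filter on low counts. They were chosen by their levels in these same libraries, namely the counts per 1000000 counts (CPM) in Ppm1bCKO against Ppm1bfl/fl and how far the Ppm1bCKO libraries agreed. Their differences are therefore given as a description, with no test.

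Bulk RNA-seq was made from mouse bone marrow cells labelled Lsk, a name usually given to lineage-negative, Sca-1-positive, Kit-positive stem and progenitor cells. There were 2 libraries labelled Ppm1bCKO (conditional knockout of Ppm1b, a metal-dependent protein phosphatase) and 2 labelled Ppm1bfl/fl (Ppm1b flanked by loxP sites). The sources used here do not name the Cre line or its promoter, the age of the mice, any pooling, or whether replicates were separate mice. P-values therefore measure only the spread between these libraries, which may be technical for the Ppm1bfl/fl pair. The Ppm1bCKO pair held 5870 and 2 counts of Y-linked genes, so those libraries did not come from the same mouse. In bulk RNA, more cells of a type and more RNA per cell cannot be told apart.

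B cell identity is set by a small network in which EBF1 and PAX5 switch on the genes of the B cell receptor and hold other lineages off. The receptor is a membrane immunoglobulin paired with the CD79A and CD79B chains, whose cytoplasmic tails recruit Src-family kinases such as BLK and LYN and then SYK. CD22 damps that signal, MS4A1 (CD20) is a pan-B surface protein, FCMR binds the Fc part of IgM, and VPREB3 is an endoplasmic reticulum protein of B cell precursors. In marrow, B cells arise from lymphoid progenitors and pass through precursor stages before they carry IgM. A lineage-negative sort is designed to leave most of them out.

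Total counts were 22393973 and 24856083 in Ppm1bCKO replicates 1 and 2, and 26002277 and 30045382 in Ppm1bfl/fl replicates 1 and 2. By counting error alone, a gene listed at 0 could hold 3 counts, equal to 0.0998 to 0.134 CPM. Ppm1b itself was not lower in Ppm1bCKO, at 84.3 and 121 CPM there, against 80.8 and 82.5 CPM in Ppm1bfl/fl. Gene counts sum all exons and cannot reveal the loss of one, so each direction rests on the labels, and Ppm1bCKO stands throughout for the libraries that carry that label. Replicate 2 labelled Ppm1bCKO held 2 counts of the Y-linked genes Ddx3y, Uty, Kdm5d and Eif2s3y, against 5870 to 6396 in the other 3 libraries. The sex of the mice and the replicate therefore cannot be told apart within Ppm1bCKO. Kit stood at 187 and 121 CPM in Ppm1bCKO and at 228 and 194 CPM in Ppm1bfl/fl, and Ly6a (Sca-1) at 17.7 and 22.2 CPM against 22.2 and 18.3 CPM. The 6 myeloid, erythroid and NK cell markers on a fixed list were detected in all 4 libraries and summed to 2306 and 2737 CPM in Ppm1bCKO, against 1946 and 2212 CPM in Ppm1bfl/fl. All 6 had a positive log2 fold change, with a median of 0.42. In 5 of them both libraries labelled Ppm1bCKO were above both others, as in 20.6% of all tested genes. All 6 were higher in replicate 2 than in replicate 1 labelled Ppm1bCKO, as were 50.3% of tested genes.

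Stretches before the annotated RefSeq start are shown for the 3 members in which a searched motif was found, because the members were higher together and Ebf1 is one of them. RefSeq windows of 250 bases (GRCm38.p6, the build called mm10) existed for 6 members, with 7 windows. Bases that the deposited table counts as exon were cut off. The stretches of Cd22 and Vpreb3 lie inside the span of the gene in that table, not before its first base. Capitals mark the match, and both strands were searched.
Cd79a, chr7:24897247-24897380, plus strand: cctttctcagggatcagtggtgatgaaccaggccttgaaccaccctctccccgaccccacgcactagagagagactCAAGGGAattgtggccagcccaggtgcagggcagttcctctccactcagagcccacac
Cd22, chr7:30879029-30879176, minus strand: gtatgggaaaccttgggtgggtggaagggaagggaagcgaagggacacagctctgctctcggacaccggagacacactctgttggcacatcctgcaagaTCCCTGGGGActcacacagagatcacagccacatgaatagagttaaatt
Vpreb3, chr10:75948050-75948299, plus strand: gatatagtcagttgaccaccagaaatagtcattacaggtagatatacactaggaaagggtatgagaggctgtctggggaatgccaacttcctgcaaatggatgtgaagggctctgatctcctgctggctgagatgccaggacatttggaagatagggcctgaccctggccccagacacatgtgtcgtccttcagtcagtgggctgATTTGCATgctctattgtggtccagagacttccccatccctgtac

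The palindromic EBF1 consensus, spelled TCCCNNGGGA, was in the Cd22 window alone among the 6 members, and in 0.779% of all 32851 windows of that length. The letters CAAGGGA, a shorter form chosen after the windows had been read, were in the Cd79a window alone, and in 4.21% of all windows. The octamer ATTTGCAT, which binds the POU factors that act with Pou2af1, was in the Vpreb3 window alone and in 1.60% of all windows. No match overlapped another. A match is a run of letters, not a shown binding site.

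All 9 genes were more abundant in both libraries labelled Ppm1bCKO than in both Ppm1bfl/fl libraries. The same held for 20.6% of all tested genes. Their log2 fold changes ran from 0.68 to 1.79 with a median of 1.32, against a median of -0.0032 over all tested genes. A log2 fold change above 1 was found in 8 of the 9, and in 1.71% of all tested genes. No member passed the edgeR quasi-likelihood test at an adjusted p of 0.05 over all genes (0 of 9; background 0.372% in either direction and 0.061% higher). At an unadjusted p under 0.05 there were 9 (background 6.44%), and DESeq2 called 6, all higher (background 1.37% in either direction and 0.463% higher). These counts describe the choice of members and nothing is read from them.

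**Figure D1:**
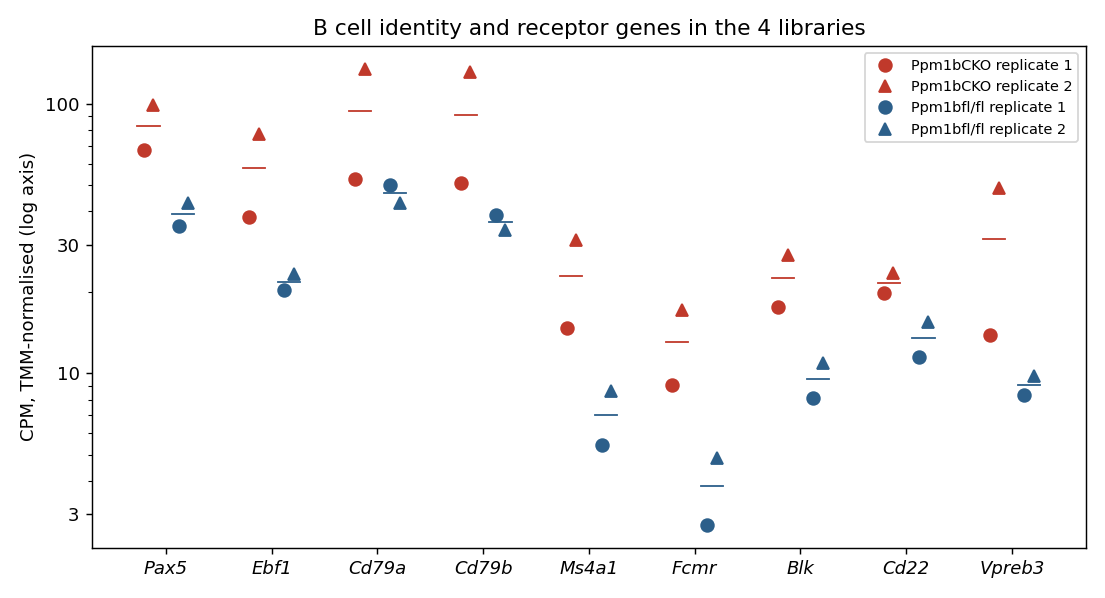
TMM-normalised CPM (log axis) of the 9 genes in each library, with Ppm1bCKO in red on the left and Ppm1bfl/fl in blue on the right of each gene; horizontal bars are means of 2 libraries. Both red points lie above both blue points for every gene, and the gap is narrowest for Cd79a, at 52.7 CPM in Ppm1bCKO replicate 1 and 50.2 CPM in Ppm1bfl/fl replicate 1.

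Among the transcription factor genes, Pax5 (ENSMUSG00000014030.15, mm10 chromosome 4, 44524757 to 44710487) stood at 67.2 and 99.1 CPM in replicates 1 and 2 labelled Ppm1bCKO, and at 35.1 and 42.8 CPM in Ppm1bfl/fl replicates 1 and 2. PAX5 is the factor that commits a precursor to the B lineage, and its transcript was more abundant in each library labelled Ppm1bCKO, with no overlap. The log2 fold change was 1.09 ± 0.22. Errors of log2 fold changes here are the absolute log2 fold change divided by the square root of the edgeR F statistic. Those of members are given as a description and hold nothing beyond that statistic. Ebf1 (ENSMUSG00000057098.14, chromosome 11, 44617317 to 45008091), which acts upstream of Pax5, stood at 38.1 and 77.5 CPM in Ppm1bCKO and at 20.4 and 23.3 CPM in Ppm1bfl/fl. Its groups did not overlap either, but the libraries labelled Ppm1bCKO lay far apart and those labelled Ppm1bfl/fl close together. Its log2 fold change was 1.40 ± 0.31, or 0.80 without replicate 2 labelled Ppm1bCKO. Per base of exon, Ebf1 reached 0.515 and 0.710 of the Pax5 level in Ppm1bCKO, and 0.527 and 0.494 of it in Ppm1bfl/fl, so the ratio stood apart in replicate 2 labelled Ppm1bCKO.

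The signalling chains of the receptor were the most abundant members per base of exon. Cd79a (ENSMUSG00000003379.7, chromosome 7, 24897381 to 24902197) stood at 52.7 and 135 CPM in Ppm1bCKO, against 50.2 and 43.0 CPM in Ppm1bfl/fl. Replicate 1 labelled Ppm1bCKO was thus barely above the higher Ppm1bfl/fl library, and the log2 fold change of 1.01 ± 0.40 came to 0.18 without replicate 2 and 1.53 without replicate 1. Cd79b (ENSMUSG00000040592.11, chromosome 11, 106311341 to 106314762) stood at 50.7 and 131 CPM in Ppm1bCKO, against 38.7 and 33.9 CPM in Ppm1bfl/fl. Its log2 fold change was 1.32 ± 0.41, or 0.48 without replicate 2 labelled Ppm1bCKO. The products form a heterodimer, and their transcripts kept a near-constant ratio per base of exon within each genotype. Cd79a over Cd79b was 1.02 and 1.01 in Ppm1bCKO, and 1.27 and 1.25 in Ppm1bfl/fl. The ratios did not overlap between genotypes, although each chain differed more than 2-fold between the libraries labelled Ppm1bCKO. Levels of single genes lay apart without overlap in 20.6% of all tested genes in each direction. No such share was computed for ratios, and the ratio was not tested.

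Of the genes that act at the receptor, Blk (ENSMUSG00000014453.4, chromosome 14, 63372836 to 63417037), a Src-family kinase gene, stood at 17.6 and 27.6 CPM in Ppm1bCKO and at 8.08 and 10.9 CPM in Ppm1bfl/fl. Its log2 fold change was 1.25 ± 0.28, and replicate 1 labelled Ppm1bCKO was also well above both Ppm1bfl/fl libraries. Cd22 (ENSMUSG00000030577.14, chromosome 7, 30865402 to 30880342), the inhibitory lectin gene, stood at 19.8 and 23.6 CPM in Ppm1bCKO and at 11.5 and 15.5 CPM in Ppm1bfl/fl. It had the smallest difference of the 9 members, 0.68 ± 0.23 on the log2 scale, and the closest agreement between the libraries labelled Ppm1bCKO. Its exons share 3795 bases with Gm29439 on the other strand, which was listed with 0 counts in all 4 libraries. How reads in that stretch were assigned is not given in the sources used here, so the level of Cd22 is uncertain. Pax5 shares 808 exonic bases with 5730488B01Rik, which held at most 10 counts.

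The surface genes of maturing B cells had large fold changes at low levels. Ms4a1 (ENSMUSG00000024673.9, chromosome 19, 11249675 to 11266241) stood at 14.8 and 31.2 CPM in Ppm1bCKO and at 5.45 and 8.59 CPM in Ppm1bfl/fl. Fcmr (ENSMUSG00000042474.6, chromosome 1, 130865669 to 130880791) stood at 9.06 and 17.1 CPM in Ppm1bCKO and at 2.74 and 4.87 CPM in Ppm1bfl/fl. The groups did not overlap for either gene, and the lowest count behind these values was 73, for Fcmr in Ppm1bfl/fl replicate 1. Log2 fold changes were 1.71 ± 0.38 for Ms4a1 (1.07 without replicate 2 labelled Ppm1bCKO) and 1.78 ± 0.39 for Fcmr. Both genes were also higher in replicate 2 than in replicate 1 of Ppm1bfl/fl, by 0.65 and 0.81 on the log2 scale, the widest spread of any member there.

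Vpreb3 (ENSMUSG00000000903.3, chromosome 10, 75943057 to 75949657) had the largest fold change of the members with all 4 libraries and no replicate block, and the least agreement between the libraries labelled Ppm1bCKO. It stood at 13.9 and 48.9 CPM in Ppm1bCKO and at 8.34 and 9.81 CPM in Ppm1bfl/fl. Its log2 fold change was 1.79 ± 0.56, or 0.62 without replicate 2 labelled Ppm1bCKO and 2.43 without replicate 1. Without replicate 2 labelled Ppm1bCKO, Fcmr (1.24), Ms4a1 (1.07), Blk (0.88), Ebf1 (0.80) and Pax5 (0.78) were above it. Without Ppm1bfl/fl replicate 2, Fcmr at 2.25 and Ms4a1 at 2.07 were above Vpreb3 at 1.91. With the replicate block, Fcmr at 1.77 and Ms4a1 at 1.66 were above Vpreb3 at 1.55.

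Both libraries labelled Ppm1bCKO went the same way for every member, but not by the same amount. Against the mean of the Ppm1bfl/fl libraries, replicate 1 was higher by 0.18 to 1.29 on the log2 scale, with a median of 0.79. Replicate 2 was higher by 0.81 to 2.42, with a median of 1.83. Replicate 2 exceeded replicate 1 for all 9 genes in Ppm1bCKO, and for 50.3% of tested genes. In Ppm1bfl/fl it did so for 7 of the 9, and for 49.7% of tested genes. The median absolute log2 difference between the libraries labelled Ppm1bCKO was 1.02 for the members and 0.33 over all tested genes, and between the Ppm1bfl/fl libraries it was 0.28 and 0.17. The summed level of the 9 genes was 284 and 591 CPM in Ppm1bCKO, against 181 and 193 CPM in Ppm1bfl/fl. With replicate 2 left out, the median log2 fold change of the members was 0.78, and with replicate 1 left out it was 1.82. The part of sex in the distance between replicates was not tested.

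**Figure D2:**
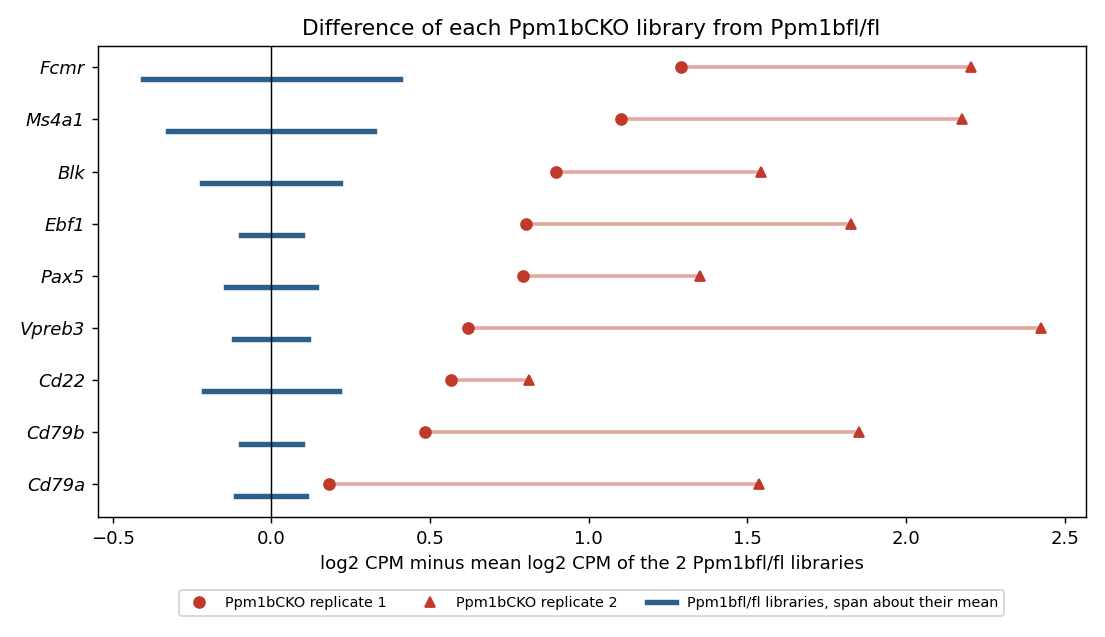
Log2 CPM of each member in each library labelled Ppm1bCKO (red circle, replicate 1; red triangle, replicate 2) minus the mean of the 2 Ppm1bfl/fl libraries, whose own span is the blue bar. Replicate 1 lies between 0.18 (Cd79a) and 1.29 (Fcmr), and replicate 2 lies to its right for every gene, up to 2.42 (Vpreb3).

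Per base of exon (RPKM, the CPM divided by exon length in kilobases), the order of levels was similar in both genotypes. In Ppm1bCKO the means were 64.5 ± 40.0 for Cd79a, 63.5 ± 39.7 for Cd79b, 36.6 ± 28.8 for Vpreb3, 9.40 ± 2.55 for Pax5 and 8.37 ± 2.61 for Blk (SD, n = 2). Fcmr followed at 7.55 ± 3.29, Ebf1 at 5.93 ± 2.86, Cd22 at 4.30 ± 0.52 and Ms4a1 at 3.71 ± 1.87 RPKM (SD, n = 2). The order from Cd79a to Ebf1 held within each library, while Cd22 changed places with Ebf1 and with Ms4a1. Over both libraries the ranges of neighbours overlapped, except for Vpreb3, whose range lay above that of Pax5. In Ppm1bfl/fl the means were 32.0 ± 3.5 for Cd79a, 25.4 ± 2.4 for Cd79b and 10.6 ± 1.2 for Vpreb3 RPKM (SD, n = 2), each above the next in both libraries. Pax5 at 4.40 ± 0.61, Blk at 3.52 ± 0.75, Cd22 at 2.68 ± 0.56, Ebf1 at 2.24 ± 0.21, Fcmr at 2.19 ± 0.87 and Ms4a1 at 1.13 ± 0.36 RPKM came after them (SD, n = 2). The order from Pax5 to Ebf1 held within each library, and Ebf1 and Fcmr changed places. Over both libraries the ranges of neighbours from Pax5 to Fcmr overlapped, and Ms4a1 lay below all of them. Exon lengths are unions over all transcripts, from 859 bases for Vpreb3 to 9756 for Ebf1, so a gene with many alternative exons appears lower.

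Genes of B cell receptor signalling that are not members differed less as a group. The members were chosen on this contrast, so a smaller difference in another list can follow from that choice. Of 28 tested, 0 passed the edgeR test in either direction (background 0.372%), and 5 had an unadjusted p under 0.05 (background 6.44%). DESeq2 called 3, all higher (background 0.463% higher). The median log2 fold change was 0.10, with 19 positive and 9 negative. Cd72, an inhibitory co-receptor gene, stood at 49.3 and 90.3 CPM in Ppm1bCKO, against 22.5 and 27.3 CPM in Ppm1bfl/fl (1.49 ± 0.28, edgeR adjusted p = 0.117). It had the pattern of the members, with replicate 2 labelled Ppm1bCKO highest and no overlap. Siglecg, a relative of Cd22, differed on the log2 scale by 0.91 ± 0.21, and the adaptor gene Blnk by 0.88 ± 0.27 (edgeR adjusted p = 0.267 and 0.559).

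Other B cell surface and survival genes were mostly higher in Ppm1bCKO, without passing the test. Of 20 tested, 18 had a positive log2 fold change, with a median of 0.49 over the list. By edgeR 0 passed in either direction (background 0.372%), and 10 had an unadjusted p under 0.05 (background 6.44%). DESeq2 called 2, both higher (background 0.463% higher). Tnfrsf13c, the receptor for the survival factor BAFF, stood at 9.63 and 15.5 CPM in Ppm1bCKO, against 6.46 and 5.64 CPM in Ppm1bfl/fl (1.06 ± 0.29, edgeR adjusted p = 0.404). Fcrla, an intracellular Fc receptor-like gene of B cells, stood at 29.0 and 78.2 CPM in Ppm1bCKO, against 16.7 and 17.7 CPM in Ppm1bfl/fl (1.64 ± 0.43, edgeR adjusted p = 0.442). Ly6d and the activation marker gene Cd83 had log2 fold changes of 1.30 ± 0.36 and 0.89 ± 0.27 (edgeR adjusted p = 0.47 and 0.543).

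Among 18 other transcription factor genes of the lineage, 0 passed the edgeR test in either direction (background 0.372%). At an unadjusted p under 0.05 there were 7 (background 6.44%), and DESeq2 called 2, both higher (background 0.463% higher). The median log2 fold change was 0.18, with 12 positive and 6 negative. Bach2, a repressor that holds back plasma cell differentiation, stood at 51.4 and 66.8 CPM in Ppm1bCKO, against 29.8 and 31.0 CPM in Ppm1bfl/fl (0.96 ± 0.19, edgeR adjusted p = 0.132). Its groups did not overlap, and its libraries labelled Ppm1bCKO were closer to each other than those of Ebf1. Spib, an ETS factor gene of B cells and of plasmacytoid dendritic cells, differed on the log2 scale by 1.56 ± 0.37 (edgeR adjusted p = 0.324). Foxo1 and Irf4 had log2 fold changes of 0.68 ± 0.20 and 0.62 ± 0.20 (edgeR adjusted p = 0.517 and 0.619).

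**Figure D3:**
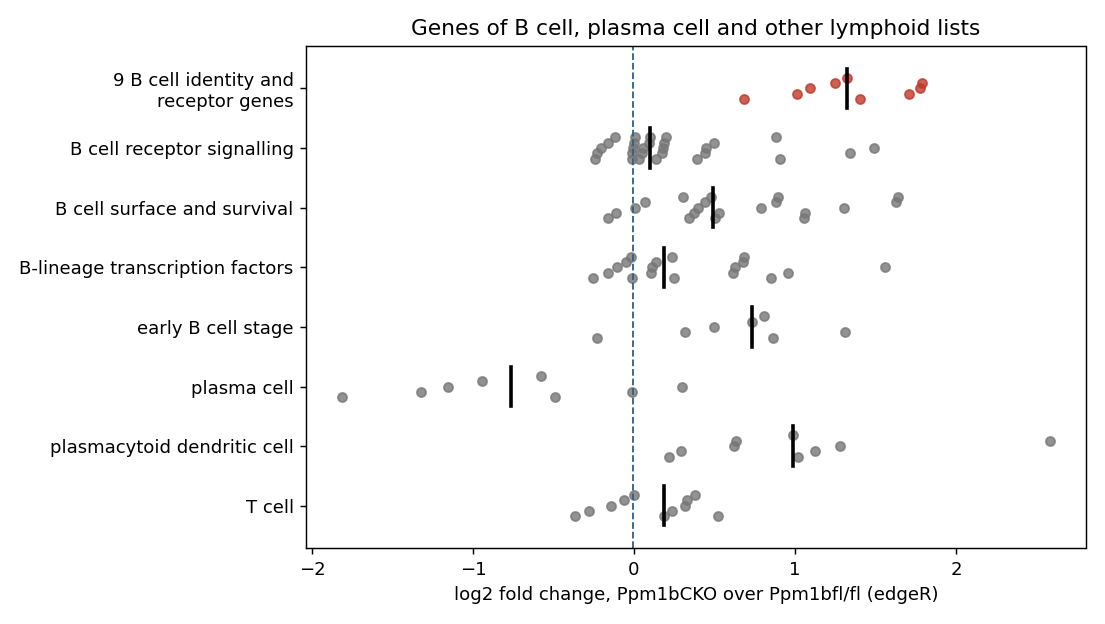
EdgeR log2 fold changes of Ppm1bCKO over Ppm1bfl/fl, 1 point per gene, for the 9 members (red) and 7 lists (grey); black bars are list medians and the dashed line is the median of all tested genes. The members lie between 0.68 and 1.79, receptor signalling genes centre at 0.10 and plasma cell genes at -0.76.

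Genes of the early B cell stage, to which Vpreb3 also belongs, had a median log2 fold change of 0.73, with 6 positive and 1 negative. Of 7 tested, 0 passed the edgeR test in either direction (background 0.372%) or were called by DESeq2 (background 1.37%). At an unadjusted p under 0.05 there were 4 (background 6.44%). Rag1, which cuts antigen receptor gene segments, stood at 25.2 and 38.8 CPM in Ppm1bCKO, against 17.6 and 17.7 CPM in Ppm1bfl/fl (0.86 ± 0.24, edgeR adjusted p = 0.422). Vpreb1, Igll1 and Rag2 had log2 fold changes of 0.81 ± 0.28, 0.73 ± 0.26 and 1.31 ± 0.50 (edgeR adjusted p = 0.699, 0.715 and 0.717). The negative one was Dntt, picked with its values known, which adds bases at the joins of receptor segments. It stood at 52.5 and 40.2 CPM in Ppm1bCKO, against 60.1 and 48.3 CPM in Ppm1bfl/fl, and the groups overlapped (-0.23 ± 0.20, edgeR adjusted p = 0.752).

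Plasma cell genes lay on the other side. Of 8 tested, 7 were negative and the median log2 fold change was -0.76. By edgeR 0 passed in either direction (background 0.372%), and 4 had an unadjusted p under 0.05 (background 6.44%). DESeq2 called 2, both lower (background 1.37% in either direction). Jchain, which joins IgA and IgM units, stood at 463 and 624 CPM in Ppm1bCKO, against 2448 and 1377 CPM in Ppm1bfl/fl (-1.82 ± 0.30, edgeR adjusted p = 0.0638). Derl3, Prdm1 and Tnfrsf17 had log2 fold changes of -1.32, -0.94 and -1.16 (edgeR adjusted p = 0.194, 0.366 and 0.704). Among constant regions, Ighm stood at 944 and 1627 CPM in Ppm1bCKO, against 1103 and 675.5 CPM in Ppm1bfl/fl, and the groups overlapped (0.53 ± 0.32, edgeR adjusted p = 0.717). Ighd, which with Ighm marks naive B cells, stood at 12.1 and 16.6 CPM in Ppm1bCKO, against 8.23 and 8.02 CPM in Ppm1bfl/fl (0.82 ± 0.24, edgeR adjusted p = 0.509). Igkc was lower in Ppm1bCKO, at 1711 and 2638 CPM, against 8609 and 5127 CPM in Ppm1bfl/fl (-1.66 ± 0.33, edgeR adjusted p = 0.136). Igha, the IgA constant region, named with its values known, fell to 1628 and 1868 CPM in Ppm1bCKO, against 10296 and 6227 CPM in Ppm1bfl/fl (-2.24 ± 0.30, edgeR adjusted p = 0.0225). Its log2 fold change was -2.15 without replicate 1 labelled Ppm1bCKO and -2.34 without replicate 2. It was -1.84 without Ppm1bfl/fl replicate 1 and -2.56 without replicate 2. Each of these fits leaves 1 library in a genotype, so no call is read from them.

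Markers of plasmacytoid dendritic cells, a type that shares Blk and Spib with B cells, were higher beside the members, without passing the test. All 9 tested had a positive log2 fold change with a median of 0.99, and none was at 0 counts. In 8 of the 9, both libraries labelled Ppm1bCKO were above both others, as in 20.6% of all tested genes. The summed level was 421 and 521 CPM in Ppm1bCKO, against 321 and 332 CPM in Ppm1bfl/fl. By edgeR 0 passed in either direction (background 0.372%), and 5 had an unadjusted p under 0.05 (background 6.44%). DESeq2 called 4, all higher (background 0.463% higher). Siglech stood at 47.4 and 50.4 CPM in Ppm1bCKO, against 24.9 and 19.96 CPM in Ppm1bfl/fl (1.12 ± 0.19, edgeR adjusted p = 0.0638). The part of these cells in the result for Blk was not tested. T cell markers had a median log2 fold change of 0.19, with 6 of 11 positive. For them 0 passed the edgeR test (background 0.372%) or DESeq2 (background 1.37%), and 1 of 11 had an unadjusted p under 0.05 (background 6.44%). Their summed level was 227 and 241 CPM in Ppm1bCKO, against 245 and 204 CPM in Ppm1bfl/fl, and Cd3e stood at 17.0 and 19.2 CPM against 19.6 and 18.2 CPM. Cd3d, with the smallest p of the list, stood at 12.9 and 15.5 CPM against 10.7 and 9.09 CPM (0.52 ± 0.23, edgeR adjusted p = 0.717). Both libraries labelled Ppm1bCKO were above both others in 4 of the 11 and below them in 1. Over all tested genes the share was 20.6% in each direction.

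**Figure D4:**
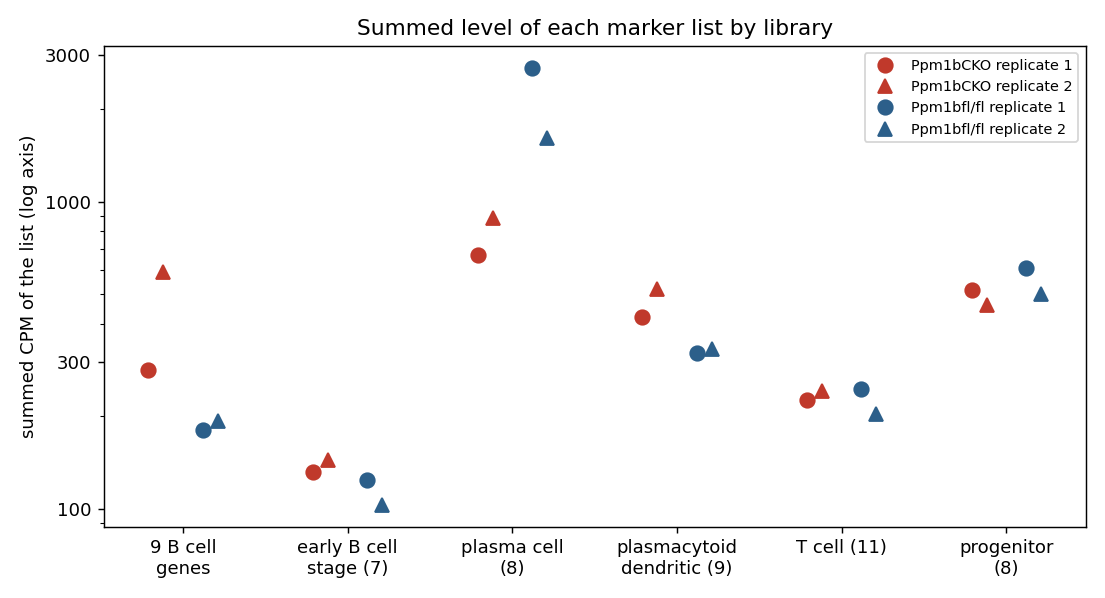
Summed TMM-normalised CPM (log axis) of 6 marker lists in each library, Ppm1bCKO in red left of Ppm1bfl/fl in blue; numbers in brackets are genes per list. The 9 B cell genes sum to 284 and 591 CPM in Ppm1bCKO and to 181 and 193 CPM in Ppm1bfl/fl. Plasma cell genes sum to 668 and 886 CPM against 2726 and 1615 CPM. Most of that sum is Jchain, at 463 and 624 CPM against 2448 and 1377 CPM, so it describes mainly that gene.

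The genes most like the members were ranked by the Euclidean distance over the 4 libraries between centred log2 CPM profiles, against the mean profile of the members. Among the 8 nearest were Myzap, Ear2, Ear1, Chst3, Cd72, Atp1b1 and Egfl6, at distances from 0.13 to 0.25. The members lay at 0.098 (Ebf1) to 0.78 (Cd22), 426 other genes were nearer than the farthest member, and the median over all tested genes was 1.50. Since the members were chosen on this contrast and make up the mean profile, their small distances were built in. Of those named, Cd72 is on a B cell list used here and the others are not. Ear1 and Ear2, ribonuclease genes of eosinophils that are close paralogs and may share reads, had the same shape at higher levels. Ear2 stood at 410 and 817 CPM in Ppm1bCKO, against 231 and 302 CPM in Ppm1bfl/fl (1.20 ± 0.31, edgeR adjusted p = 0.366). Likeness over 4 libraries describes these libraries alone.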

How the data were processed

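The deposited table gives unnormalised counts for each gene in 4 libraries, with exon coordinates and exonic lengths, per the file headers. Trim Galore 0.6.7, HISAT2 2.2.0, featureCounts 2.0.1 and mm10 are named in the submitters' processing notes. The annotation release, strand setting and handling of multi-mapping reads are not given in the sources used here. Symbols came from GENCODE M21 by Ensembl identifier (55139 matched, 260 did not). Per the labels' protocols, RNA was extracted with TRIzol from cells called pre-sorted, and libraries were made with a TruSeq kit.

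The genotypes were compared by the robust quasi-likelihood test of edgeR 4.0.16 (R 4.3.3) without covariates, after TMM scaling and filterByExpr (at least 10 counts, at least 15 in total), with Benjamini-Hochberg adjustment over 16393 genes and a threshold of 0.05. Fold changes are Ppm1bCKO over Ppm1bfl/fl. CPM are TMM-normalised. RPKM were computed from these CPM and the deposited lengths. The script was tested on simulated data. Pairs of replicates differed beyond sampling noise (chi-square per degree of freedom 53.5 in Ppm1bCKO and 25.5 in Ppm1bfl/fl). The smallest two-sided p an exact permutation test allows with 2 libraries a group is 0.333.

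Members, gene lists and the rule for named genes were chosen with earlier results of these data known. The rule named the members, up to 4 genes per list with the smallest p, 10 fixed genes and the 8 nearest by profile (log2 CPM with a prior count of 2; predicted genes, clones and antigen receptor segments left out). One gene that the rule named is not reported here. Alternatives were DESeq2 size factors, DESeq2 1.42.0, no filter, a CPM of at least 1 in 2 libraries, a replicate block, immunoglobulin genes left out, and each library left out.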

Additional observations from a re-analysis of the deposited data

How the results depend on the processing

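The sign of the log2 fold change of all 9 members was positive under each of the 10 alternatives (90 of 90 values, 0.18 to 2.43). With both Ppm1bCKO libraries above both others for every member, leaving a library out could not turn the sign. The other alternatives used the same 4 libraries on which the members were chosen, so nothing is read from the sign. Counts of calls varied. Over all genes, members, receptor signalling, surface and survival, transcription factor, early stage, plasma cell and plasmacytoid dendritic cell lists, in that order, edgeR called 61, 0, 0, 0, 0, 0, 0 and 0. DESeq2 called 199, 6, 3, 2, 2, 0, 2 and 4 of them, with 14486 genes given an adjusted p. Without the filter on low counts the numbers were 311, 7, 4, 4, 3, 1, 2 and 5, with 28388 genes tested. With each library left out in turn they ran from 94 to 3336, 1 to 9, 1 to 10, 0 to 12, 1 to 8, 0 to 4, 0 to 2 and 1 to 4. The highest counts over all genes and of members came without Ppm1bCKO replicate 1, where replicate 2 alone stands for the genotype and is assumed to vary like the Ppm1bfl/fl pair. That replicate held 2 counts of the Y-linked genes, against 5984 and 6396 in Ppm1bfl/fl, so sex and genotype cannot be told apart there. T cell genes gave 0 calls in each fit on all 4 libraries. With immunoglobulin genes left out, edgeR called 0 genes of 16177 (989 at an unadjusted p under 0.05). The other two changes, the size factors and the CPM minimum, kept each count within 1.5 times. The causes were not tested.

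The replicate numbers are shared by the genotypes, but nothing says that they pair samples, and deviations of same-numbered libraries correlated at 0.064 across genes, which are not independent replicates. With the replicate number as a block and 16393 genes tested, the counts in the same order were 207, 5, 3, 0, 2, 1, 2 and 4. The median log2 fold change of the members was then 1.23. Members held 73 to 3206 counts per library, far above the 3 counts that a 0 allows.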

Other observations

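Within each library, B cell and plasma cell transcripts can be set against each other without a scaling factor. Cd79a reached 0.114 and 0.217 of the CPM of Jchain in the libraries labelled Ppm1bCKO, against 0.0205 and 0.0313 of it in Ppm1bfl/fl. Ighm reached 17.9 and 12.04 times the CPM of Cd79a in Ppm1bCKO, against 21.997 and 15.7 times in Ppm1bfl/fl, and this ratio overlapped between genotypes, whereas that of Cd79a to Jchain did not. Cd79a reached 0.282 and 1.12 of the CPM of Kit in Ppm1bCKO, against 0.220 and 0.221 of it in Ppm1bfl/fl, and replicate 2 labelled Ppm1bCKO stood apart. These pairs were picked once their values were known, and no test was run.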
